A study of Mus musculus with 6 samples.

Results

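The extracellular matrix genes described here encode adhesive and matricellular glycoproteins, elastic fibre proteins, the enzymes that cross-link matrix, and proteoglycans of the matrix, the basement membrane and the cell surface. The list holds 51 genes named by symbol, and a gene was measured where the array had a row annotated with its symbol alone. By this rule 48 of the 51 were measured, among 22180 genes tested in all, and Fbn1, Efemp2 and Loxl2 were not analysed here. The samples are kidneys of mice killed at 4 weeks of age, 3 labelled Cre-positive and 3 labelled Cre-negative, each hybridised to 1 single-colour Affymetrix array. The labels name a conditional knockout line for Pals1/Mpp5, in a C56Bl/6 background as they spell it, and Six2-Cre transgenic animals on a mixed background, with no treatment of either group. The series title speaks of haplo-insufficiency in nephrons, but the number of conditional alleles that each sample carried is not given in the sources used here. Six2-Cre acts in the progenitors of nephron epithelium, so interstitial, vascular and collecting duct cells of these kidneys are outside its lineage. Values are log2 levels after RMA, and differences are Cre-positive minus Cre-negative with the SE of a limma fit over all genes.

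Fibronectin, collagens and fibrillins form the scaffold of the interstitial matrix, and lysyl oxidases cross-link elastin and collagen into insoluble fibres. Small leucine-rich proteoglycans such as decorin bind collagen fibrils, while perlecan and agrin carry heparan sulfate chains in the basement membranes of tubules and glomeruli. Syndecans and glypicans hold the same kind of chain at the cell surface, where it binds growth factors. In adult kidney many of the matricellular proteins are made sparsely at rest and more strongly in wound repair and fibrosis.

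Some arrays stood apart from the others of their group. Mpp5, the targeted gene, averaged 8.10 ± 0.09 in Cre-positive and 8.71 ± 0.06 in Cre-negative arrays (SD, n = 3 each), a difference of -0.61 ± 0.09 (adjusted p = 0.00232). Xist, made from the inactive X chromosome of females, stood at 4.00 to 4.29 in Cre-positive arrays and at 10.76, 10.70 and 4.16 in Cre-negative replicates 1, 2 and 3. Female transcripts were thus present in the Cre-negative group alone, in 2 of its 3 arrays. The 6 adrenal cortex markers had mean levels of 4.23 to 4.32 in Cre-positive arrays and of 4.43, 9.46 and 4.35 in Cre-negative replicates 1, 2 and 3. The 6 skeletal muscle markers had mean levels of 4.88, 6.75 and 4.60 in Cre-positive replicates 1, 2 and 3 and of 4.78 to 4.86 in Cre-negative arrays. The labels do not say whether the samples came from separate animals, so p-values measure the spread between samples only.

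Cre-positive kidneys had higher levels of 21 of the 48 measured matrix genes at adjusted p under 0.05 and a lower level of 1, and 26 did not pass. These 22 calls are 45.8% of the members, where 21.8% of all genes tested were called, 10.7% higher and 11.1% lower. The largest rise was that of Lox, at 4.41-fold, followed by Tnc, Thbs2, Mgp, Mfap5, Gpc3, Fn1, Agrn, Thbs1 and Fbn2, each at least 2-fold higher. These 10 genes compare with 2.16% of all genes that were called and higher by at least 1 on the log2 scale. The member median was 0.47, against -0.01 over all genes tested. The groups did not overlap for 29 members, and 38.5% of all genes had groups without overlap. With 3 arrays against 3, a two-sided exact permutation of the arrays gave Lox p = 0.10, the smallest this design allows. With sex as a second factor, the Cre-positive arrays are in effect set against 1 array, Cre-negative replicate 3, which is assumed to vary like the others. In that fit 11 of the 22 members passed, where 9.15% of all genes were called, and the member median was 0.41. The 11 that did not were Sparc, Thbs2, Thbs4, Fbn2, Fbln2, Mfap5, Loxl1, Loxl3, Dcn, Bgn and Gpc6. With both arrays that carried muscle or adrenal transcripts left out, limma called 8 members higher, as it did 3.96% of all genes, and the member median was 0.38.

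**Figure D1:**
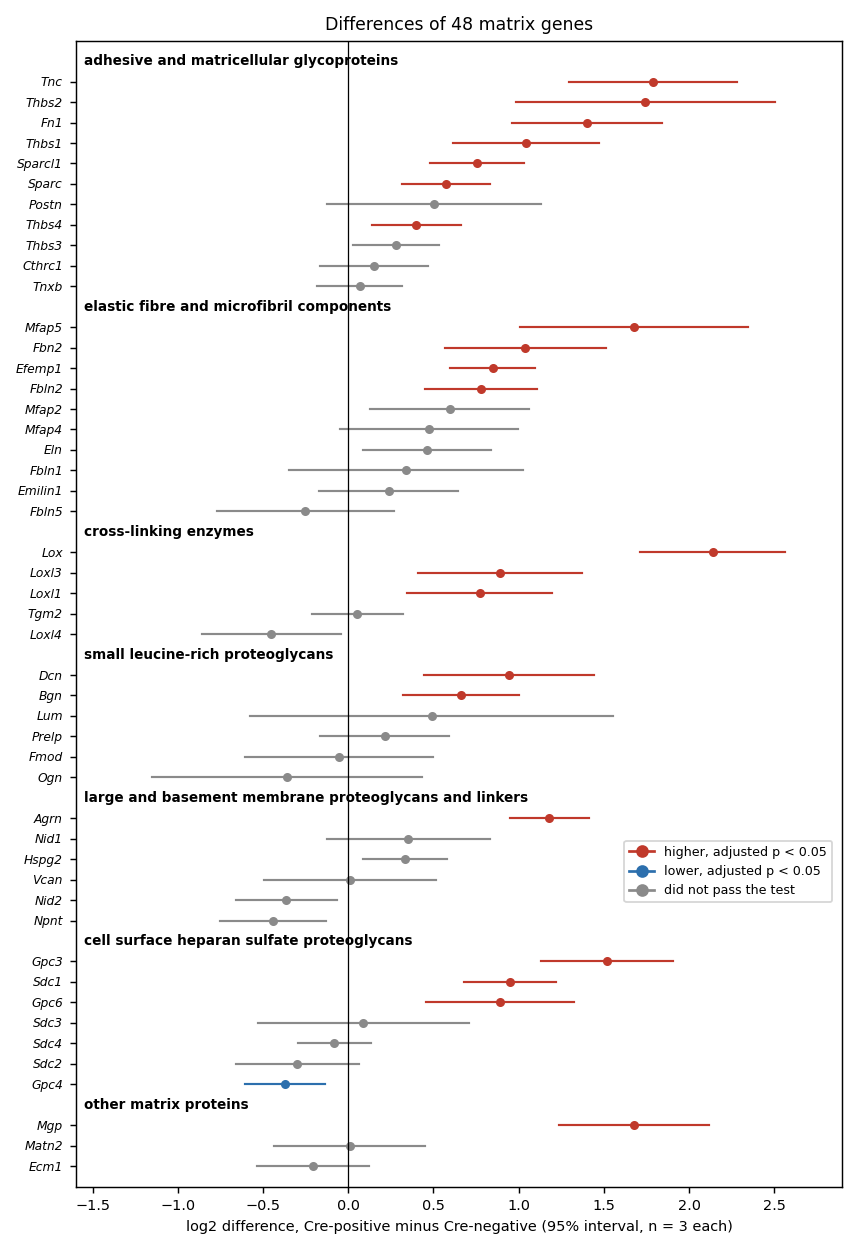
Log2 difference between Cre-positive and Cre-negative kidneys (x axis, point) with its 95% interval (line) for each of the 48 measured matrix genes, grouped by role. The 21 red genes were higher and the 1 blue gene, Gpc4, was lower at adjusted p under 0.05; Lox, at 2.14, lies farthest to the right.

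Adhesive and matricellular glycoproteins were the group with the most calls: 7 of 11 rose, 0 fell and 4 did not pass, with a median of 0.58. Fn1, which encodes fibronectin, read 10.79, 11.31 and 11.59 in Cre-positive arrays and 9.94, 9.71 and 9.83 in Cre-negative arrays. That is a 2.64-fold rise (95% interval 1.95 to 3.59, adjusted p = 0.00185). Tenascin-C, encoded by Tnc, is a matricellular protein of developing and injured tissue. Tnc read 8.88, 9.26 and 9.75 in Cre-positive arrays and 7.33, 7.73 and 7.46 in Cre-negative arrays, a difference of 1.79 ± 0.21 (adjusted p = 0.00106). All 3 Cre-positive arrays lay above all 3 Cre-negative arrays for both genes, by more than either group's spread.

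The thrombospondins, secreted glycoproteins that bind calcium and cell surface receptors, differed in size of response. Thbs2 read 8.61, 8.66 and 9.90 in Cre-positive arrays and 7.49, 7.03 and 7.42 in Cre-negative arrays, a difference of 1.74 ± 0.33 (adjusted p = 0.00776). Cre-positive replicate 3 stood well above the other two, which were close to each other. Thbs1, an activator of latent TGF-beta, read 10.81, 10.93 and 11.51 in Cre-positive arrays and 10.18, 10.09 and 9.85 in Cre-negative arrays, a difference of 1.04 ± 0.19. Thbs4 rose by 0.40 ± 0.11 (adjusted p = 0.0401), a call that was lost in 12 of 16 alternative settings. Thbs3 was at 0.28 ± 0.11 and did not pass (95% interval 0.03 to 0.53).

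The remaining members of this group spanned calls and non-calls. Sparcl1 (0.75 ± 0.12) and Sparc (0.58 ± 0.11), related collagen-binding matricellular proteins, rose by 1.69-fold and 1.49-fold. Postn, which encodes periostin, read 7.80, 8.78 and 8.98 in Cre-positive arrays and 8.04, 7.99 and 8.02 in Cre-negative arrays. Cre-positive replicate 1 lay below every Cre-negative array and the other two lay above them all, and the difference of 0.50 ± 0.27 did not pass (adjusted p = 0.247). Without that array the Postn difference was 0.86 with limma adjusted p = 0.00193. Leaving out the lowest Cre-positive array can only raise the difference, so this is a description only. Cthrc1, a collagen-associated secreted protein (0.15 ± 0.14), and Tnxb, tenascin-X (0.07 ± 0.11), did not pass.

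Of the 48 measured members, 29 had an entry in the RefSeq promoter table, which gives 250 bases before and 50 after each start. The upstream 250 bases are shown here and further on for 4 members that rose by at least 1, because these are among the largest differences, and for Gpc4, with matches to 4 short motifs in capitals. The motifs were TGANTCA of AP-1, CAGAC of SMAD proteins and GGAATG of TEAD proteins, each on both strands, and the TATA box TATAAA on the gene strand. The first sequence, of the upstream start of Tnc (GRCm38.p6, chr4:64047016-64047265, minus strand), holds a TATA box whose first base is 126 bases before the start. The second, of Thbs2 (GRCm38.p6, chr17:14694263-14694512, minus strand), holds 2 SMAD matches on the opposite strand, 66 and 43 bases before the start.
Tnc: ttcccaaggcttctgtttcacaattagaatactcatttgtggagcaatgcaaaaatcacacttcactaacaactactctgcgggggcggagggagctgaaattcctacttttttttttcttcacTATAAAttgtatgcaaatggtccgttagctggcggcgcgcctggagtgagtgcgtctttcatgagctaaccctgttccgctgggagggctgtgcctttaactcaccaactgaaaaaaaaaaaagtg
Thbs2: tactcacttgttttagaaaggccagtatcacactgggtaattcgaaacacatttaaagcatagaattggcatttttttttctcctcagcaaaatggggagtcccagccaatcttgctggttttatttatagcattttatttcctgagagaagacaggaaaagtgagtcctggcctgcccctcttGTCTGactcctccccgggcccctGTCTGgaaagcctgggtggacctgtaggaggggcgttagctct

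Over every listed start and the whole window, the motifs were about as common in the matrix genes as elsewhere. CAGAC occurred in 6 of the 10 higher members with a promoter entry, in 17 of all 29 members, or 58.6%, and in 53.2% of all 27025 genes. TGANTCA was found in 1 of the 10, Efemp1, and in 9.0% of all genes. GGAATG was found in 1 of the 10, Thbs4, and in 16.6% of all genes, and TATAAA in 1, Tnc, and in 9.8%. A match describes the letters of the window and does not show that a factor binds there.

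Among elastic fibre and microfibril components 4 of 10 rose, 0 fell and 6 did not pass, with a median of 0.53. Mfap5, a microfibril-associated glycoprotein also called MAGP-2, read 7.48, 8.08 and 8.80 in Cre-positive arrays and 6.30, 6.59 and 6.45 in Cre-negative arrays. It rose by 3.19-fold (95% interval 2.01 to 5.08, adjusted p = 0.00537), and its Cre-positive values spread over more than 1 log2 unit without reaching the Cre-negative ones. With the sex term the Mfap5 call was lost (adjusted p = 0.0614). Fbn2, the fibrillin of developing tissues, read 5.42, 5.71 and 6.29 in Cre-positive arrays and 4.63, 4.81 and 4.86 in Cre-negative arrays, a difference of 1.04 ± 0.20. Its Cre-negative levels lay below 5.18, the 95th percentile of the mean levels of 1105 olfactory receptor genes. The size of its difference and its place among the largest rises are therefore uncertain, and its call was lost with the sex term (adjusted p = 0.11).

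The fibulins, which link microfibrils, elastin and basement membrane, did not move together. Efemp1, fibulin-3, rose by 0.85 ± 0.11 (adjusted p = 0.00146) and Fbln2, fibulin-2, by 0.78 ± 0.14 (adjusted p = 0.00658). Fbln1 was at 0.34 ± 0.30, with Cre-positive replicate 1 at 6.87 and replicate 3 at 8.25 around Cre-negative levels of 7.14 to 7.27. Fbln5, which is needed for elastic fibre assembly, was at -0.25 ± 0.22 and did not pass. Eln, elastin itself, was at 0.46 ± 0.16 with groups that did not overlap, and did not pass (adjusted p = 0.0828).

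Mfap2, or MAGP-1, a constituent of fibrillin microfibrils, had the largest difference among the members that did not pass. It read 7.62, 8.11 and 8.49 in Cre-positive arrays and 7.38, 7.61 and 7.45 in Cre-negative arrays (0.59 ± 0.20, adjusted p = 0.0727). Mfap4, a microfibril-associated protein that binds collagen and elastin, read 6.52, 6.83 and 7.53 in Cre-positive arrays and 6.46, 6.49 and 6.51 in Cre-negative arrays (0.47 ± 0.23, adjusted p = 0.19). In both genes Cre-positive replicate 1 lay close to the highest Cre-negative array. Emilin1, an elastin-associated glycoprotein, was at 0.24 ± 0.18 and did not pass.

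**Figure D2:**
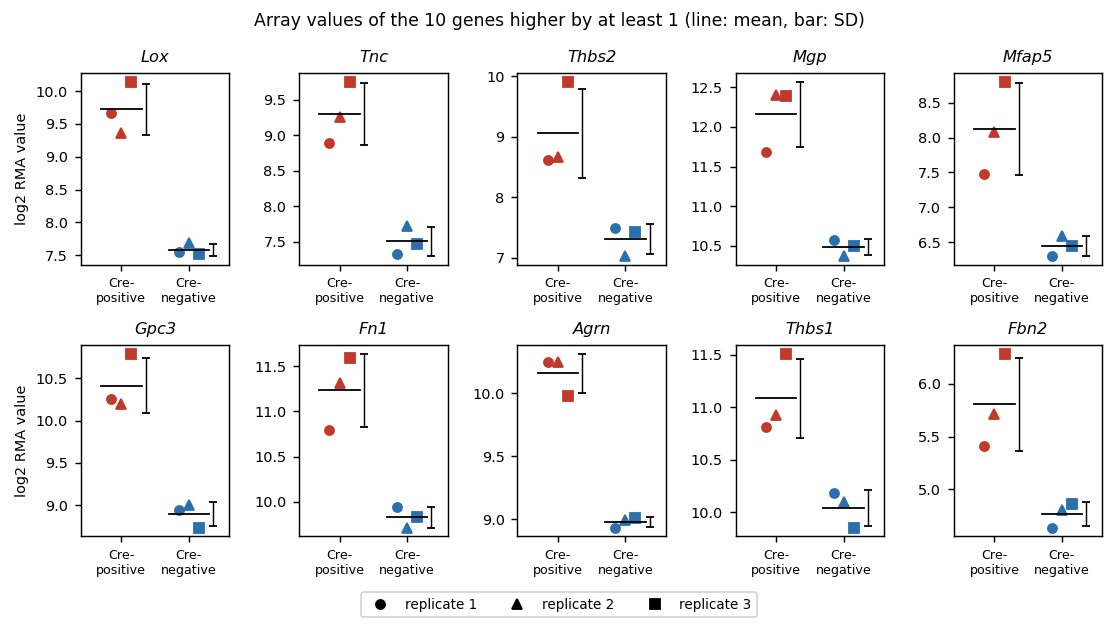
Log2 RMA values (y axis, one scale per gene) of the 10 matrix genes that were called and higher by at least 1, in 3 Cre-positive (left) and 3 Cre-negative arrays (right); lines are group means, bars are SDs and marker shapes are replicates. The groups do not overlap in any of the 10, and the Cre-positive values spread more widely, as for Thbs2 with 8.61 to 9.90.

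Cross-linking enzymes gave the largest single difference. Lox, the lysyl oxidase that oxidises lysines of collagen and elastin, read 9.67, 9.36 and 10.14 in Cre-positive arrays and 7.54, 7.69 and 7.51 in Cre-negative arrays. The gap between the lowest Cre-positive and the highest Cre-negative array was wider than the range of either group, and the rise was 4.41-fold (95% interval 3.28 to 5.92, adjusted p = 0.000279). Its relatives Loxl3 (0.89 ± 0.21) and Loxl1 (0.77 ± 0.18) also rose, by 1.85-fold and 1.71-fold, and each call was lost in 7 of 16 alternative settings, the sex term among them. Loxl4 was at -0.45 ± 0.18 and did not pass (adjusted p = 0.113). Tgm2, the transglutaminase that cross-links proteins through glutamine and lysine, was at 0.05 ± 0.12 (95% interval -0.21 to 0.32), near 0 and at -0.01 after median centring. In all, 3 of the 5 measured enzymes rose, 0 fell and 2 did not pass.

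Small leucine-rich proteoglycans were split: 2 of 6 rose, 0 fell and 4 did not pass, with a median of 0.35. Dcn, decorin, rose by 0.94 ± 0.22 (adjusted p = 0.0173) and Bgn, biglycan, by 0.66 ± 0.15 (adjusted p = 0.0156), and both calls were lost with the sex term. Lum, lumican, which regulates collagen fibril thickness, read 5.45, 6.73 and 7.63 in Cre-positive arrays and 6.14, 6.04 and 6.17 in Cre-negative arrays. Its Cre-positive arrays thus lay both below and above the Cre-negative ones, with an SD of 1.10 against 0.07, and the difference of 0.49 ± 0.46 did not pass. Without Cre-positive replicate 1 the Lum difference was 1.07 (limma adjusted p = 0.0236), and without replicate 3 it was -0.02. Leaving out the lowest array can only raise the difference and leaving out the highest can only lower it, so both are descriptions only. Ogn, osteoglycin (-0.36 ± 0.34), Fmod, fibromodulin (-0.05 ± 0.24), and Prelp, a collagen-anchoring protein (0.22 ± 0.16), did not pass.

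Most genes of this family lie in clusters in the RefSeq gene order of GRCm38.p6. Dcn, Lum, Kera and Epyc are 4 consecutive protein-coding genes on chromosome 10. Dcn was called and Lum was not, while Kera (0.04 ± 0.08) and Epyc (-0.06 ± 0.10), which were not on the list, stood at levels of 3.66 to 4.07 in all arrays. Ogn, Omd, Aspn and Ecm2 are consecutive on chromosome 13, and all 4 had negative differences that did not pass, of -0.36, -0.53, -0.67 and -0.61. Of the 10 family members outside the list, 0 passed limma's test at adjusted p under 0.05, where 21.8% of all genes were called. Aspn, Omd and Podnl1, 3 of the 10, had an unadjusted limma p under 0.05, as had 7418 of all 22180 genes tested. Differences of the 10 ran from -0.67 to 0.42. In Kera, Epyc, Nyx and Podnl1 both group means lay below 5.18, the olfactory receptor level given above, so the lack of a call says little for them.

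Of the large and basement membrane molecules 1 of 6 rose, 0 fell and 5 did not pass, with a median of 0.17. Agrn, which encodes agrin, a heparan sulfate proteoglycan of glomerular and tubular basement membranes, was the one that rose. It read 10.25, 10.25 and 9.98 in Cre-positive arrays and 8.93, 8.99 and 9.01 in Cre-negative arrays, a 2.27-fold rise (95% interval 1.93 to 2.66, adjusted p = 0.000269). Unlike in most members, Cre-positive replicate 3 was the lowest of its group here. Hspg2, perlecan, was at 0.34 ± 0.11 with groups that did not overlap and missed the threshold (adjusted p = 0.06).

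The nidogens, which join laminin to collagen IV, had opposite signs, Nid1 at 0.35 ± 0.21 and Nid2 at -0.36 ± 0.13, and neither passed. Npnt, nephronectin, the ligand of integrin alpha-8 in kidney development, was at -0.44 ± 0.14 (adjusted p = 0.0527). It passed under 4 alternatives and stood at 10.98 in Cre-negative replicate 3 against 11.40 and 11.38 in the other Cre-negative arrays. Vcan, versican, a large chondroitin sulfate proteoglycan, was at 0.01 ± 0.22. The promoter of Agrn (upstream start, GRCm38.p6, chr4:156197489-156197738, minus strand) is shown for contrast with those above. It has a GC content of 83.6%, against 44.8% for Tnc and 46.8% for Thbs2, and holds none of the 4 motifs.
Agrn: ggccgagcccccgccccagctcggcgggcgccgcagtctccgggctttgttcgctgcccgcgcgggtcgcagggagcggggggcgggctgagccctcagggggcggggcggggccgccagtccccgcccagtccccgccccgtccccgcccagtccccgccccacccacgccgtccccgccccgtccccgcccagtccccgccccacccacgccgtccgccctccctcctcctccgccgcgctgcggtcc

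Cell surface heparan sulfate proteoglycans moved in both directions: 3 of 7 rose, 1 fell and 3 did not pass, with a median of 0.09. Gpc3, glypican-3, a regulator of growth factor and Hedgehog signalling in development, read 10.26, 10.19 and 10.79 in Cre-positive arrays and 8.95, 9.01 and 8.73 in Cre-negative arrays. It rose by 2.87-fold (95% interval 2.19 to 3.74, adjusted p = 0.000766). Gpc4, glypican-4, read 9.52, 9.51 and 9.42 in Cre-positive arrays and 9.76, 9.78 and 10.03 in Cre-negative arrays. It fell by 0.37 on the log2 scale (SE 0.10, adjusted p = 0.0345), and the call was lost in 11 of 16 alternative settings, though not with the sex term. Gpc6, glypican-6, rose by 0.89 ± 0.19 (adjusted p = 0.0125).

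Gpc3 and Gpc4 are adjacent protein-coding genes on the X chromosome and differed in opposite directions, so their promoters are shown together. The upstream bases of Gpc3 (GRCm38.p6, chrX:52613975-52614224, minus strand) and of Gpc4 (GRCm38.p6, chrX:52164924-52165173, minus strand) are both rich in GC, at 71.6% and 68.4%. That of Gpc4 holds 1 TEAD match, on the opposite strand and 131 bases before the start, and that of Gpc3 holds none of the 4 motifs.
Gpc3: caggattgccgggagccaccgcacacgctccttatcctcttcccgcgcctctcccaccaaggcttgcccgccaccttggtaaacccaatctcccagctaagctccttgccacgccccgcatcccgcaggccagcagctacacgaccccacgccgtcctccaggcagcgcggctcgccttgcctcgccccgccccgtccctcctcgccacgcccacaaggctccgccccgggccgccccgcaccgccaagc
Gpc4: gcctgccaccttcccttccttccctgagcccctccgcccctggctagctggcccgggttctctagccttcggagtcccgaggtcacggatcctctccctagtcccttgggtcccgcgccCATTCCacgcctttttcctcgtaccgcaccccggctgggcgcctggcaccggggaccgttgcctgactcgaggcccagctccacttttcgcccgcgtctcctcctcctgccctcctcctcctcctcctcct

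Among the syndecans, transmembrane co-receptors for matrix and growth factors, Sdc1 was the one that rose, by 0.95 ± 0.12 (adjusted p = 0.00126). A second row of Sdc1, with means of 4.93 in Cre-positive and 4.95 in Cre-negative arrays, lay below the olfactory receptor level of 5.18 in both groups and could not bear on the difference; averaging that row with the other gave 0.46. Sdc4 varied by an SD of 0.0064 in Cre-positive arrays and was at -0.08 ± 0.09, a sign that turned after a second quantile normalization (0.10). Sdc2 (-0.30 ± 0.16) and Sdc3 (0.09 ± 0.27) did not pass.

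Of the 3 other matrix proteins, 1 rose and 2 did not pass. Mgp, matrix Gla protein, an inhibitor of tissue calcification, read 11.69, 12.40 and 12.39 in Cre-positive arrays and 10.57, 10.37 and 10.50 in Cre-negative arrays. It rose by 3.20-fold (95% interval 2.36 to 4.34, adjusted p = 0.000878), and the lowest Cre-positive array stood more than 1 log2 unit above the highest Cre-negative one. Ecm1, a secreted glycoprotein that binds perlecan and other matrix proteins, was at -0.21 ± 0.14. Matn2, matrilin-2, a filament-forming adaptor protein, was at 0.01 ± 0.19.

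Spread was unequal between the groups. The median SD over the 48 members was 0.37 in Cre-positive and 0.12 in Cre-negative arrays, against 0.14 and 0.10 over all genes. Cre-positive replicate 1 was the lowest of its group in 38 of 48 members, as in 32.5% of all genes, and replicate 3 the highest in 36 of 48, as in 34.9% of all genes. Measured from the Cre-negative mean, the median member stood at 0.14, 0.51 and 0.88 in Cre-positive replicates 1, 2 and 3. In the 26 members that did not pass these medians were -0.21, 0.26 and 0.38, a description only, since a low replicate 1 itself keeps a gene from passing. Without Cre-positive replicate 1 limma called 28 members higher, where 10.1% of all genes were, and the member median was 0.69. The 28 were the same 21 and Postn, Thbs3, Fbln1, Emilin1, Mfap2, Mfap4 and Lum. Without replicate 3 the member median was 0.28, and Fbln5 (-0.53), Ogn (-0.81) and Nid2 (-0.47) were called lower, as were 11.8% of all genes. Since these arrays were most often the lowest and the highest of their group in the members, both results are descriptions only.

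**Figure D3:**
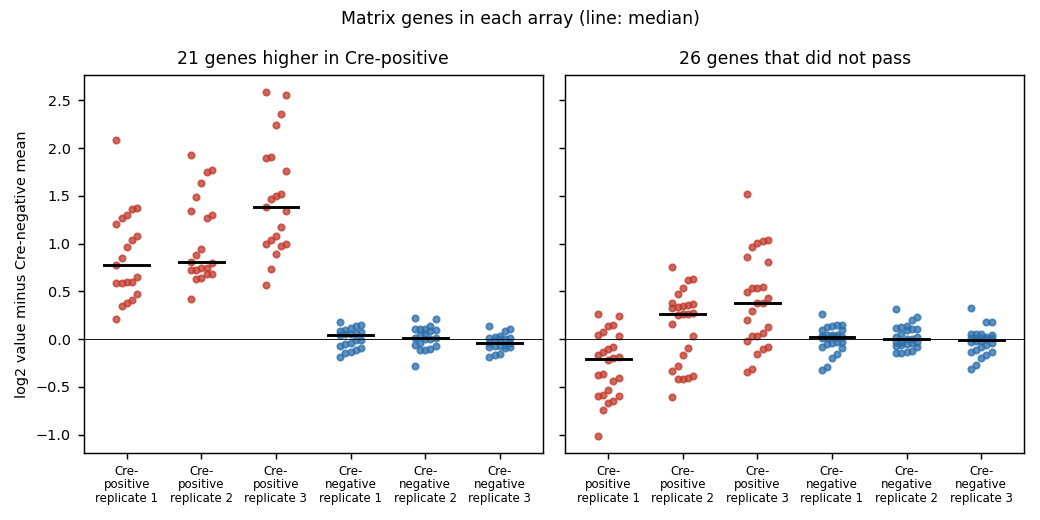
Log2 value minus the Cre-negative mean (y axis) for each matrix gene (points) in each array, for the 21 genes that were higher in Cre-positive kidneys (left panel) and the 26 that did not pass (right panel), a split made by the test itself; lines are medians. In the right panel the medians of Cre-positive replicates 1, 2 and 3 are -0.21, 0.26 and 0.38.

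Markers of several cell types differed in the same arrays, where 21.8% of all genes tested were called. In whole-kidney RNA, more cells of a type and more RNA per cell cannot be told apart. Of 7 markers of fibroblasts and pericytes 4 rose, Pdgfra and the collagen genes Col1a1 (1.49 ± 0.22), Col1a2 and Col3a1, which encode matrix themselves. Pdgfrb (0.45 ± 0.27), Rgs5 (0.47 ± 0.16) and Cspg4 (0.27 ± 0.12) did not pass. The mean level of the 7 markers was 9.51, 9.92 and 10.12 in Cre-positive and 8.98 to 9.09 in Cre-negative arrays. Of 5 smooth muscle and myofibroblast markers 3 rose, with a mean level of 8.71 to 9.34 in Cre-positive and 8.32 to 8.51 in Cre-negative arrays. Of 8 macrophage markers 7 rose. Mean levels of the 8 were 8.24, 8.79 and 9.42 in Cre-positive replicates 1, 2 and 3 and 7.14 to 7.32 in Cre-negative arrays. This replicate order is that of the matrix genes, and the means of the fibroblast, smooth muscle, mesangium and podocyte markers had it too. All 4 measured uroplakin genes of the urothelium rose (7.86 to 8.23 in Cre-positive, 7.04 to 7.14 in Cre-negative arrays), and 7 of 8 proximal tubule, 5 of 7 endothelial and 4 of 5 podocyte markers fell. Of 3 measured mesangium markers 1 rose, Gata3 (0.41 ± 0.12), while Itga8 (-0.81 ± 0.26) and Pdgfrb, also counted with the fibroblast markers, did not pass. Gata3 read 7.97, 7.76 and 7.66 in Cre-positive replicates 1, 2 and 3, an order opposite to that of Itga8 and Pdgfrb. The 3 markers thus did not move together. Of 5 adipose tissue markers 1 rose and 1 fell. With the sex term the calls that held were 1 of 4 for fibroblasts and pericytes, 0 of 3 for smooth muscle, 3 of 7 for macrophages, 3 of 4 for urothelium, 7 of 7 for proximal tubule, 2 of 5 for endothelium and 3 of 4 for podocytes. The part of these cell types in the matrix gene differences was not tested.

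In 6 lists of other matrix genes and sugar chain enzymes, the share of genes called ran from 0.0% to 53.3%. Of 15 further elastic fibre and microfibril genes 7 rose, 1 fell and 7 did not pass. Ltbp2, a microfibril protein of the family named for latent TGF-beta binding, read 8.36, 8.70 and 9.27 in Cre-positive arrays. It read 5.64, 5.38 and 5.92 in Cre-negative arrays (3.13 ± 0.23, adjusted p = 0.000153). These Cre-negative levels lay little above the olfactory receptor level of 5.18, so the size of the Ltbp2 difference is uncertain. Adamtsl5 (1.21 ± 0.09), Adamts10 (0.90 ± 0.13), Adamtsl4 (0.86 ± 0.12) and Ltbp3 (0.70 ± 0.09) rose too, while Ltbp4 (-0.03 ± 0.16) and Ltbp1 (-0.30 ± 0.13) did not pass. Among 30 matricellular and other glycoproteins 12 rose, 4 fell and 14 did not pass. Smoc2, a calcium-binding matricellular protein, rose by 1.86 ± 0.19, Tgfbi, a TGF-beta-induced adhesion protein, by 1.39 ± 0.18, and the CCN family genes Ccn2 and Ccn1 by 1.34 ± 0.12 and 1.31 ± 0.19. Tnn, tenascin-W (-0.78 ± 0.12), and Edil3, an integrin ligand (-0.76 ± 0.11), fell.

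The enzymes that build and edit glycosaminoglycan chains held 6 higher and 2 lower genes among 37, a share called of 21.6%, with 21.8% over all genes. Xylt1, a xylosyltransferase that starts chain synthesis on the core protein, read 7.34, 7.76 and 7.59 in Cre-positive arrays and 9.20, 9.02 and 9.28 in Cre-negative arrays. The difference was -1.61 ± 0.13 (adjusted p = 0.000207), while its paralog Xylt2 was at -0.01 ± 0.11. The extracellular sulfatases Sulf1 (0.98 ± 0.24) and Sulf2 (0.60 ± 0.09), which remove 6-O-sulfates from heparan sulfate, and the sulfotransferase Hs3st1 (0.67 ± 0.08) rose. With the sex term Sulf1 was at 1.10 and its call was lost.

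Of 13 other proteoglycan core proteins 2 rose, 3 fell and 8 did not pass. Esm1, endocan, an endothelial proteoglycan, fell by 1.55 on the log2 scale, and the glypicans Gpc5 (-0.42 ± 0.10) and Gpc1 (-0.42 ± 0.12) fell too. With the sex term Gpc1 was at -0.22 and did not pass (adjusted p = 0.458). In the hyaluronan list 2 of 11 rose, 2 fell and 7 did not pass. Cd44, the hyaluronan receptor, read 7.27, 7.96 and 7.67 in Cre-positive arrays and 5.12, 5.48 and 5.44 in Cre-negative arrays (2.29 ± 0.18, adjusted p = 0.000199). Its Cre-negative levels lay near the olfactory receptor level of 5.18, so the size of its difference is uncertain. The synthases Has1 (0.15 ± 0.09), Has2 (-0.02 ± 0.17) and Has3 (-0.18 ± 0.13) did not pass, and their array values lay between 3.94 and 5.78.

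**Figure D4:**
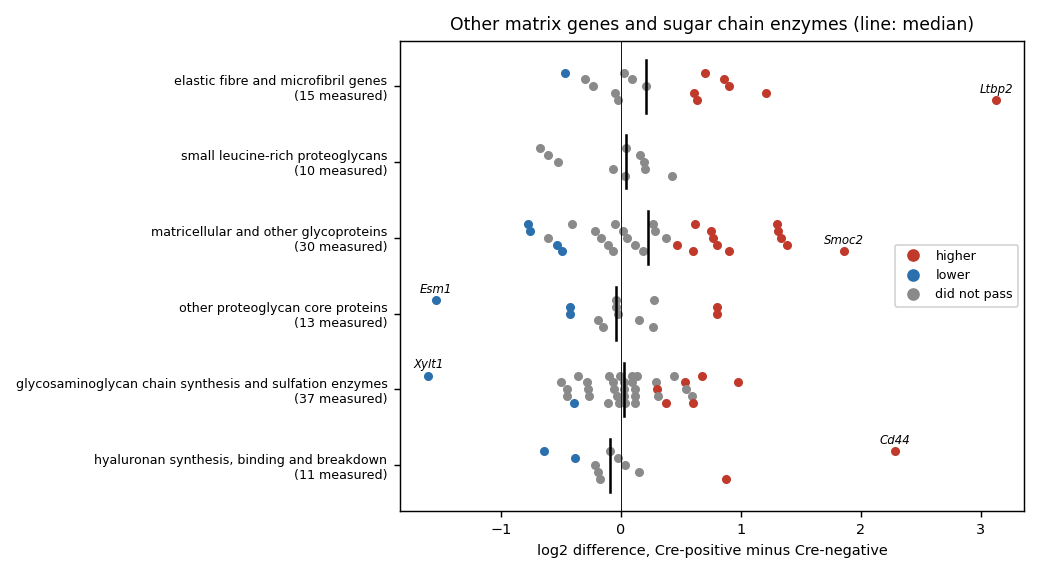
Log2 difference between Cre-positive and Cre-negative kidneys (x axis) for each gene (points) of 6 lists of other matrix genes and sugar chain enzymes, coloured by the call at adjusted p under 0.05; lines are list medians. Ltbp2 (3.13) and Cd44 (2.29) lie farthest to the right and Xylt1 (-1.61) farthest to the left, and no small leucine-rich proteoglycan is coloured.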

How the data were processed

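Total RNA of 6 kidney samples was labelled with biotin and hybridised to Affymetrix arrays, per the labels' protocols. The authors deposited log2 values after RMA, which subtracts background, applies quantile normalization and combines the probes of a set. Partek and RMA are the tools listed, per the submitters' processing notes. The log2 scale rests on how RMA works and on values of 1.89 to 13.6. For the probe sets, the genome build is not given in the sources used here, and gene coordinates are left out. Scanner files and scan dates were not used, so no batch could be tested. RMA compresses differences of dim genes.

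Of 41345 rows, 23521 had 1 gene symbol in GEO's platform annotation, 1814 several and 16010 none. A gene was represented by its brightest row, by the mean of 6 arrays (5 members had 2 rows). Array medians lay between 5.55 and 5.64. The 2 groups were tested in R 4.3.3 by lmFit and eBayes of limma 3.58.1 (two-sided), with Benjamini-Hochberg adjustment over 22180 genes and a threshold of 0.05, without a filter on low values. The fit was tested on simulated data. Older symbols in the gene lists were matched through RefSeq synonyms. Promoters came from RefSeq (GRCm38.p6).

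The members, lists, tests and alternatives were chosen with earlier results of these data known. Array values are given for called members that differ by at least 1 and for the 4 members of largest difference that did not pass, and in the other lists up to 6 called genes of smallest p and 2 that did not pass are named. The array values of Gpc4, Npnt and Fbln1, Sulf1, the Has genes and the gene clusters were singled out after their values were seen. The other settings were median centring, a repeated quantile normalization, leaving out low genes, robust eBayes with a trend, mean rows, a threshold of 0.01, the replicate block, leaving out 1 array or both with transcripts of other tissues, a sex term and male arrays alone. Figures were drawn with matplotlib 3.10.9 in Python 3.11.15.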

Additional observations from a re-analysis of the deposited data

How the results depend on the processing

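The number of arrays limits precision, and no array gives a signal over background in the table. Over 16 alternative settings the member median stayed between 0.28 and 0.69, and no called member changed sign. Agrn, Efemp1, Gpc3, Lox, Mgp, Sdc1 and Tnc passed in all 16 settings, and the other 15 called members lost the call in at least 1. The cause of the changes below was not tested, except that fewer arrays or a further term leave fewer residual degrees of freedom.

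The sex term and the male arrays alone both rest on 1 Cre-negative array, replicate 3, which is assumed to vary like the others, and give the same differences, so they are not independent. Against 21 members higher, the count was 10 with the sex term, 7 with male arrays alone and 8 without both arrays that carried adrenal or muscle transcripts, and 17 to 28 when 1 array was left out. Against 1 lower, the count was 2 with median centring, with low genes left out and with trend and robust eBayes. It was 0 with a second quantile normalization, at a threshold of 0.01, with male arrays alone and without both arrays, and 0 to 3 when 1 array was left out. Among all genes tested, 4844 were called, against 2516 at the threshold of 0.01, 2030 with the sex term, 1101 with male arrays alone, 1853 without both arrays and 3141 to 4885 when 1 array was left out, fewest without Cre-negative replicate 1. Of 115 companion genes 28 were higher and 12 lower, against 18 and 6 at the threshold of 0.01, 10 and 3 with male arrays alone and 14 and 5 without both arrays; 16 were higher with the sex term. With 1 array left out the companion counts were 18 to 30 higher and 8 to 14 lower.

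With the replicate block 21 members were higher, 20 of them the same, and 0 lower, and 3977 genes were called in all. The labels do not say whether same-numbered arrays belong together. Over all genes their deviations from the group means correlated at 0.03, -0.04 and -0.01. This cannot decide the question, since a pairing that touched few genes would leave such correlations near 0.

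The sign turned in some settings for 11 members that had not passed, and none of them passed in the settings that turned it. Under a second quantile normalization Vcan was at -0.0388, Sdc4 at 0.10 and Matn2 at -0.0096; with median centring Tgm2 was at -0.0078, Vcan at -0.0509 and Matn2 at -0.0538. With the sex term and with male arrays alone Cthrc1 was at -0.0255, Sdc4 at 0.0463 and Matn2 at -0.0076. Without both arrays Tnxb was at -0.0444, Tgm2 at -0.0397, Matn2 at -0.0850 and Ecm1 at 0.0097. When 1 array was left out the ranges were -0.35 to 0.19 for Fmod, -0.0308 to 0.15 for Tnxb, -0.0490 to 0.16 for Tgm2, -0.11 to 0.43 for Sdc3, -0.16 to 0.23 for Matn2, -0.0005 to 0.69 for Fbln1, -0.0246 to 1.07 for Lum and -0.17 to 0.20 for Vcan.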
